A study of Mus musculus with 6 samples.

Results

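MHC class II molecules are the surface proteins with which macrophages, dendritic cells and B cells show fragments of engulfed proteins to CD4 T cells. A classical molecule pairs an alpha and a beta chain (the A and E isotypes in mouse), and it is built around the invariant chain Cd74, which blocks the peptide groove and guides the complex to endosomes. There cathepsins cut Cd74 down to a short remnant, the DM heterodimer exchanges that remnant for peptide, and the DO heterodimer restrains DM. The classical chains, Cd74 and DM are switched on together by the coactivator CIITA. CIITA acts through promoter elements known as the X box, bound by the RFX complex, and the Y box, a reversed CCAAT motif bound by NF-Y.

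The class II genes described here were every gene whose symbol starts with H2-A, H2-E, H2-DM or H2-O, plus Cd74. They came to 9 of the 753 genes measured: the classical chains H2-Aa, H2-Ab1, H2-Eb1 and H2-Ea-ps, the DM chains H2-DMa, H2-DMb1 and H2-DMb2, the DO beta chain H2-Ob, and Cd74. No measured gene carried the symbol Ciita or H2-Oa, the DO alpha chain. RNA came from macrophages grown from mouse bone marrow, 3 libraries from wild-type mice (control) and 3 from mice lacking complement factor H (FHKO), a soluble brake on the complement cascade. The labels' protocol puts the FHKO mice at 8 to 10 weeks of age and names no treatment beyond genotype. It gives neither the wild-type age, the strain nor the culture conditions, and it does not say whether each library came from a separate mouse, so p-values measure the spread between these libraries only.

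The values were normalised counts of a probe panel. The counts recovered from them summed to between 717503 and 1348064 per library, highest in FHKO 2. Of 11 macrophage marker genes 10 were on the panel and all of these passed the filter, with a summed normalised count of 79944 to 87821 in control and 85172 to 86704 in FHKO. Of these Csf1r, the receptor of macrophage colony-stimulating factor, had the smallest p, with a log2 difference (FHKO minus control) of 0.26 (limma, adjusted p = 0.141), or -0.03 with library medians set equal. Background was set at the mean plus 2 SD of the 8 negative-control probes, 16.5 to 29.1 per library on the normalised scale. Of 11 dendritic cell markers 7 were on the panel, and 3 of them (Flt3, Clec9a and Xcr1) lay below background in every library. Itgax, an integrin gene, and Batf3 (37.3 to 50.9) were above background in all 6 libraries, Fscn1 in 3 and Ccr7 in 1. The sum of the 7, mostly Itgax, was 772 to 1082 in control and 732 to 846 in FHKO. The 1 B cell marker on the panel, Ms4a1, lay below background in every library, at 8.57 to 14.2 in control and 8.32 to 20.7 in FHKO. No marker was at 0, which does not mean that each was detected, as those below background show.

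The class II genes lie as neighbours on mouse chromosome 17, apart from Cd74. RefSeq (GRCm38.p6) promoter windows, from 250 bases before to 50 after an annotated transcript start, were at hand for 6 of the 9 genes. The stretches below, from 5 of these 6 genes, are shown because they hold letters of the X and Y elements described above. Whole X boxes were not searched for. Capitals mark AAC, letters of the X box core, and ATTGG, the reversed CCAAT of the Y box, 25 to 28 bases after it. They come from chr17:34287857-34287917 (minus strand) for H2-Aa, chr17:34305763-34305822 (plus) for H2-Eb1, chr17:34153084-34153144 (plus) for H2-DMb1, chr17:34145113-34145173 (plus) for H2-DMb2 and chr17:34238805-34238862 (plus) for H2-Ob.
H2-Aa: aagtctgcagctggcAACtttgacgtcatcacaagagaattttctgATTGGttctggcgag
H2-Eb1: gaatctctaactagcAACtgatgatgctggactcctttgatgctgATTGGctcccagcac
H2-DMb1: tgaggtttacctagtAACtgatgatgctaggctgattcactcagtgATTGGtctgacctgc
H2-DMb2: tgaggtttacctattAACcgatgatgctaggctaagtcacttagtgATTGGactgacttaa
H2-Ob: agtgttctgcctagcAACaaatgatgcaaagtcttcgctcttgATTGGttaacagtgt

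The search, for AAC followed after 25 to 28 bases by ATTGG on either strand, was set with these sequences in view, and 5 of the 6 genes matched. Of all 32851 RefSeq windows 2.49% held the same arrangement, and 37.4% held ATTGG alone. Counted from the start that each window is placed on, the ATTGG began 48 bases before that of H2-Aa, 59 before H2-Eb1, 61 before H2-DMb1, 90 before H2-DMb2 and 57 before H2-Ob. For H2-DMb2 that start lies inside the gene as RefSeq annotates it, not at its first base. The arrangement was not in either window of H2-DMa, 1 of which held ATTGG. The stretches of H2-DMb1 and H2-DMb2 were identical at 52 of 61 aligned bases (85.2%). These genes are close copies that each encode a DM beta chain. The sources used here do not give the probe sequences, so signal shared between them cannot be told apart.

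The classical chains did not differ between genotypes beyond their spread, and in FHKO that spread was wide. H2-Aa, the A alpha chain, was at a normalised count of 3745, 2897 and 3669 in control libraries 1 to 3 and at 2962, 4640 and 2542 in FHKO libraries 1 to 3. FHKO 2 was the highest of the 6 libraries and FHKO 3 the lowest, so the FHKO values enclosed all the control values. Control averaged 3437 ± 469 and FHKO 3381 ± 1110 (SD, n = 3), a log2 difference (FHKO minus control) of -0.06 with a standard error of 0.22 and a 95% interval of -0.59 to 0.46 (limma, adjusted p = 0.885).

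H2-Ab1, the A beta chain that pairs with H2-Aa, was at 1870, 1424 and 1715 in control and at 1419, 2260 and 1269 in FHKO. Here too FHKO 2 was highest and FHKO 3 lowest, and the log2 difference was -0.06 with an interval of -0.57 to 0.46 (limma, adjusted p = 0.900).

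H2-Eb1, the E beta chain, was at 400, 315 and 475 in control and at 322, 482 and 284 in FHKO. Control 3 came close to FHKO 2, so the controls spread almost as widely as the FHKO libraries for this chain, 1.51-fold against 1.70-fold. Its log2 difference was -0.15 with an interval of -0.69 to 0.39 (limma, adjusted p = 0.712). The partner alpha chain, H2-Ea-ps, is annotated in RefSeq as a transcribed pseudogene in the C57BL/6J assembly. It lay below background in all 6 libraries, at 8.73, 10.1 and 5.71 in control and at 9.67, 8.32 and 11.2 in FHKO. It did not pass the filter and has no test. H2-Eb1 was thus measured above background in every library while its partner was not.

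For Cd74, the invariant chain, FHKO 2 stood apart from all other libraries with the deposited scaling. Cd74 was at 9119, 7094 and 8938 in control and at 7862, 12342 and 7259 in FHKO. The other FHKO libraries lay within the control range. The log2 difference was 0.09 with an interval of -0.39 to 0.58 (limma, adjusted p = 0.793), and it was -0.14 without FHKO 2. With library medians set equal, control 1 was the highest library for Cd74, at 10874, with 10281 in FHKO 2.

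**Figure D1:**
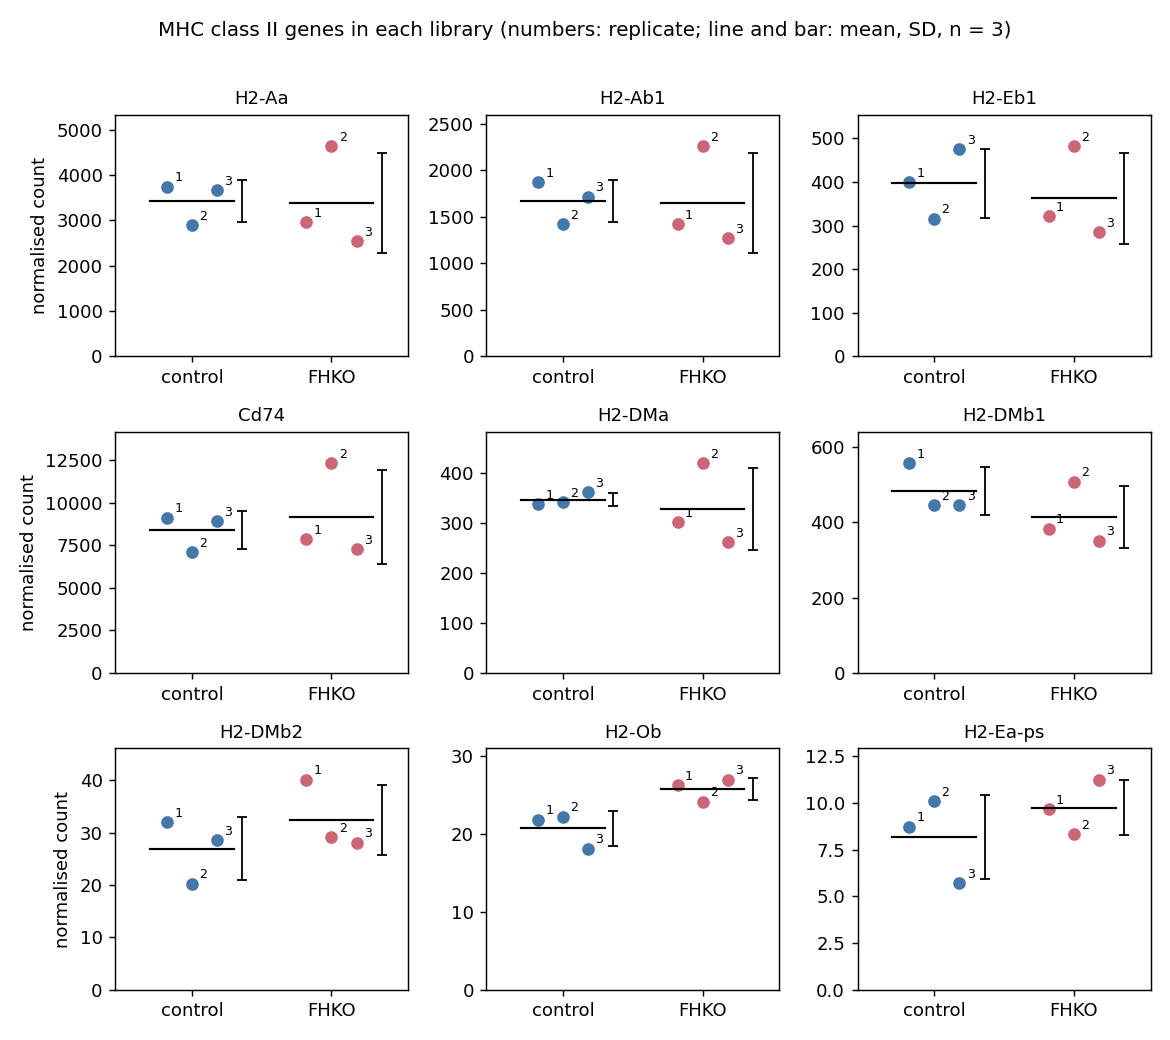
Normalised count (vertical axis, from 0) of the 9 class II genes in each control (blue) and FHKO (red) library; each number is the replicate, the line the mean and the bar the SD (n = 3). For H2-Aa, H2-Ab1, H2-Eb1, Cd74 and H2-DMa, FHKO 2 is the highest library and the groups overlap; only H2-Ob has groups that do not overlap.

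Of the DM genes, which encode the peptide exchanger, H2-DMa and H2-DMb1 were above background in every library and H2-DMb2 was not. H2-DMa, the alpha chain, was at 337, 342 and 361 in control and at 301, 420 and 262 in FHKO. The controls lay close together (1.07-fold from lowest to highest) and the FHKO values on both sides of them (1.60-fold). The log2 difference was -0.11 with an interval of -0.52 to 0.30 (limma, adjusted p = 0.718).

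H2-DMb1, a beta chain, was at 557, 446 and 445 in control and at 383, 508 and 351 in FHKO. Control 1 was the highest library here, and FHKO 1 and FHKO 3 lay below every control while FHKO 2 did not. It had the lowest log2 difference of the 8 tested genes, -0.23, with a standard error of 0.17 and an interval of -0.62 to 0.16 (limma, adjusted p = 0.408). Without FHKO 2 it was -0.39 (limma, adjusted p = 0.264), the largest shift below 0 of any tested class II gene in that setting, and it did not pass there either.

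H2-DMb2, the other beta chain, was near background at 32.0, 20.2 and 28.6 in control and at 40.1, 29.1 and 28.1 in FHKO. The recovered counts behind these values were 20 to 35 per library. Their exact 95% Poisson intervals, which cover counting error only, all overlapped. The interval was 12.3 to 31.2 in control 2, the lowest library, and 26.8 to 57.6 in FHKO 1, the highest. The log2 difference was 0.27 with an interval of -0.29 to 0.82 (limma, adjusted p = 0.503).

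H2-Ob, the DO beta chain, in mouse known mainly from B cells and some dendritic cells, was the 1 class II gene whose groups did not overlap. It was at 21.8, 22.2 and 18.1 in control and at 26.3, 24.1 and 27.0 in FHKO. All 3 FHKO values were above all 3 controls, by a small margin. FHKO stood wholly above control in 22.9% of all tested genes and wholly below in 6.33%, so 1 of 8 above and 0 of 8 below are no more than that background. Without FHKO 2 the count was 1 of 8 above (H2-Ob), against 26.5% of all tested genes, and 3 of 8 below (H2-Ab1, H2-DMa and H2-DMb1), against 11.2%. FHKO 2 was the highest FHKO library for those 3, so leaving it out lowers their FHKO values by construction. The log2 difference of H2-Ob was 0.31 with a standard error of 0.18 and an interval of -0.11 to 0.72 (limma, adjusted p = 0.311), and 0.02 once library medians were set equal. This gene was above background in 3 of 6 libraries, on 15 to 29 recovered counts each, and every library's 95% Poisson interval overlapped every other's (10.9 to 28.2 in control 3, 17.3 to 40.1 in FHKO 3). A difference of this size was not resolved by the counting depth of single libraries.

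Of the 8 class II genes tested, 0 passed limma's adjusted p of 0.05, against 0.204% of all 490 tested genes (1 gene). At an unadjusted p under 0.05, 0 of the 8 passed against 22.4% of all tested genes. On the recovered counts edgeR and DESeq2 also called 0 of them, against 0.204% and 6.73% of all tested genes (DESeq2 gave H2-DMb2 and H2-Ob no adjusted p). The members' median log2 difference was -0.06, while the median of all tested genes was 0.16. Of the 8, 5 lay below 0, as did 28.2% of all tested genes, and 6 lay below the median gene. Relative to that gene H2-DMb1 was at -0.39, H2-Eb1 at -0.31, H2-DMa at -0.27, H2-Aa at -0.22, H2-Ab1 at -0.21 and Cd74 at -0.06, and H2-DMb2 and H2-Ob were at 0.11 and 0.15.

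The scaling set part of these values. Setting library medians equal moved the median gene by -0.29 and all the members with it. The members' median log2 difference was then -0.35 against -0.13 for all tested genes, and 7 of 8 lay below 0, as did 69.2% of all tested genes. In that setting 3 of the 8 had an unadjusted p under 0.05, H2-DMb1, H2-DMa and H2-Eb1, against 26.5% of all tested genes. Their log2 differences were -0.53, -0.40 and -0.44, and none of the 8 passed, against 2.86% of all tested genes (limma, adjusted p of 0.0846, 0.127 and 0.132). Without FHKO 2 and with the deposited scaling, 6 of 8 lay below 0 (32.3% of all tested genes) and the members' median was -0.30. H2-DMb1 alone then had an unadjusted p under 0.05, against 16.0% of all tested genes. FHKO 2 was the highest FHKO library in 6 of the 8 (54.1% of all tested genes), so leaving it out lowers their differences by construction. Leaving out FHKO 3 instead put Cd74 at 0.24, H2-Aa at 0.12, H2-Ab1 at 0.11, H2-DMa at 0.037 and H2-Eb1 at 0.0099. In that setting H2-DMb1 was at -0.12, H2-DMb2 at 0.36 and H2-Ob at 0.28.

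**Figure D2:**
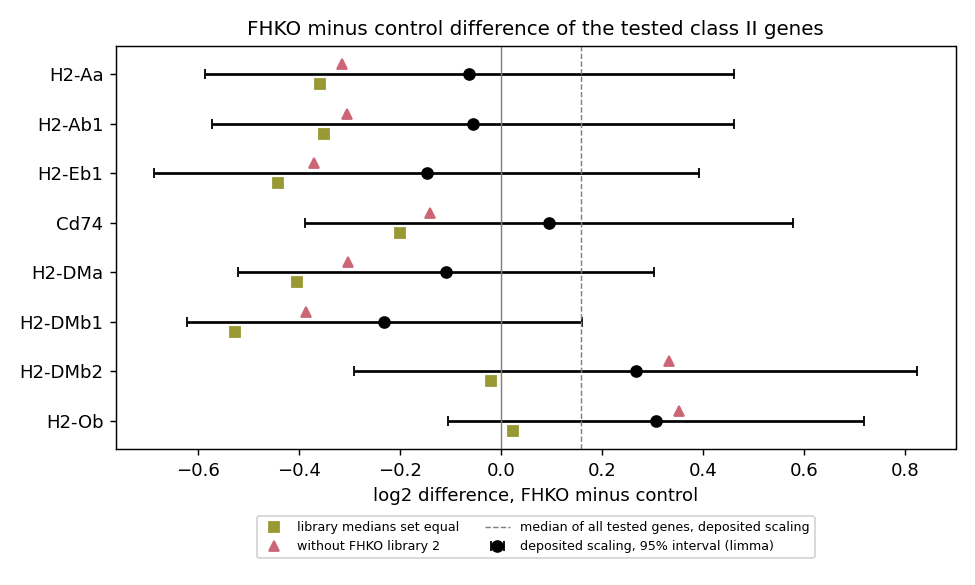
Log2 difference, FHKO minus control (horizontal axis), of the 8 tested class II genes with the deposited scaling (black, with 95% interval), with library medians set equal (squares) and without FHKO library 2 (triangles). Every interval crosses 0. For the 6 genes from H2-Aa to H2-DMb1 both alternatives lie below the deposited value, H2-DMb1 lowest. FHKO 2 is the highest FHKO library for these 6, so their triangles lie lower by construction.

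The classical chains were then set beside the DM and DO genes within each library, where the library's scaling cancels out. The quantity was the mean log2 value of the DM genes and H2-Ob minus the mean of H2-Aa, H2-Ab1, H2-Eb1 and Cd74. Its absolute level depends on the probes, so only its movement between libraries can be read, and it is given with no test. It was -4.36, -4.23 and -4.54 in control and -4.08, -4.64 and -4.11 in FHKO. FHKO 2, where the classical chains were highest, had the lowest value, and FHKO 1 and FHKO 3 the highest. The means were -4.38 ± 0.16 in control and -4.28 ± 0.31 in FHKO (SD, n = 3), a difference of 0.10, smaller than the spread. It was 0.28 without FHKO 2.

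That direction rested on the genes near background. With H2-DMa and H2-DMb1 alone the quantity was -2.37, -2.16 and -2.50 in control and -2.41, -2.60 and -2.40 in FHKO. The difference was then -0.13, of opposite sign and also within the spread (SD of 0.17 in control and 0.11 in FHKO). FHKO 2 was again the lowest library. Gene by gene, the mean of H2-DMb1 minus Cd74 was -4.11 ± 0.18 in control and -4.44 ± 0.14 in FHKO (SD, n = 3). Its 3 FHKO values (-4.36, -4.60 and -4.36) all lay below its 3 control values (-4.03, -3.99 and -4.32), the 1 pair of 8 with separate groups, described after its values were seen. The margin was small, -4.36 in FHKO 1 against -4.32 in control 3. The 8 pairs share genes, and the share of other gene pairs that separate was not computed, so nothing is read from this count. H2-DMb1 minus H2-Aa overlapped between groups, at -2.75, -2.70 and -3.04 in control and at -2.95, -3.19 and -2.85 in FHKO. H2-DMa minus H2-Aa was -3.30 ± 0.20 in control and -3.34 ± 0.10 in FHKO.

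**Figure D3:**
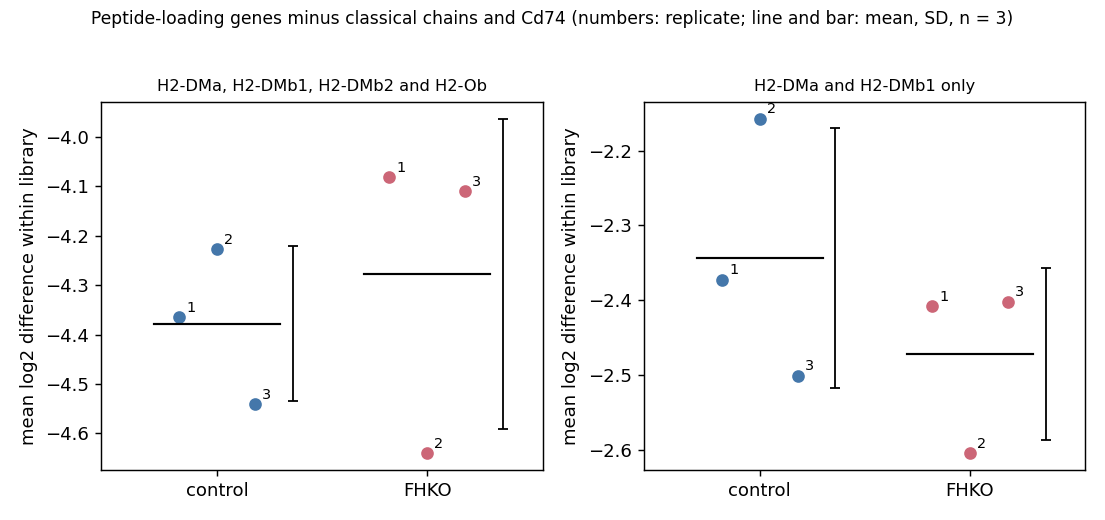
Mean log2 value of the DM and DO genes minus that of H2-Aa, H2-Ab1, H2-Eb1 and Cd74 within each library (vertical axis), for all 4 tested DM and DO genes (left) and for H2-DMa and H2-DMb1 alone (right); numbers are replicates, lines means and bars SD (n = 3). FHKO 2 is lowest in both panels, and the groups overlap in both.

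Across the 6 libraries, H2-Aa, H2-Ab1, H2-Eb1, Cd74, H2-DMa and H2-DMb1 were positively correlated with each other. They are the class II genes above background in all libraries. H2-DMb2 and H2-Ob, both near background, correlated less with them. The 15 pairs among the first 6 genes had Pearson's r between 0.653 and 0.993, and the 13 pairs with H2-DMb2 or H2-Ob had r between -0.647 and 0.303. All 28 pairs were compared, and 0 passed after Benjamini-Hochberg adjustment of exact permutation p-values. Ranks followed less closely in some of the 15 pairs. Cd74 and H2-DMa had r = 0.806 but Spearman's rho of 0.543 (exact permutation p = 0.297). The r of pairs of other genes was not computed for comparison. H2-Aa and H2-Ab1 were the closest pair, with r = 0.993 (exact permutation p = 0.00278, adjusted p = 0.0778) and Spearman's rho of 0.943 (exact permutation p = 0.0167). Without the 2 libraries farthest from the median of H2-Aa, FHKO 2 and FHKO 3, r was 0.978.

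Pairs of a classical chain with a DM or DO gene varied. H2-Aa and H2-DMa had r = 0.907 (exact permutation p = 0.0222, adjusted p = 0.0778) and rho of 0.714 (exact permutation p = 0.136), and r was 0.572 without FHKO 2 and FHKO 3. H2-Aa and H2-DMb1 had r = 0.810 (exact permutation p = 0.0583, adjusted p = 0.146) and rho of 0.771 (exact permutation p = 0.103), and r was 0.707 without the same 2 libraries. H2-Aa and H2-Ob had r = -0.421 (exact permutation p = 0.408, adjusted p = 0.602) and rho of -0.486 (exact permutation p = 0.356), and r was -0.678 without them. The genes share each library's scaling factor. With library medians set equal, the 15 pairs had r between 0.775 and 0.994, and with the deposited scaling but without FHKO 2 between 0.558 and 0.986. H2-DMb2 and H2-Ob hold the same promoter arrangement as H2-Aa, H2-Eb1 and H2-DMb1, shown above, and were measured on few counts.

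The other genes on the panel whose pattern was most like a class II gene were found by Pearson's r over the 6 libraries among 482 tested genes, as a description. For Cd74 they were Tlr3 (r = 0.987), Anxa1 (0.955) and Mmp12 (0.911). For H2-Aa they were Tlr3 (0.936), Anxa1 (0.927) and H2-T23 (0.919), and for H2-Ab1 Vav2 (0.944), H2-T23 (0.942) and Tlr3 (0.920). Anxa1, which encodes the phospholipid-binding protein annexin A1, was at 6786, 6217 and 7713 in control and at 6110, 11515 and 5559 in FHKO. As with Cd74, FHKO 2 stood far above the rest with the deposited scaling. For H2-Eb1 the closest were Mmp8 (0.942), Ccr1 (0.935) and Rhoj (0.926), and for H2-DMa Fut4 (0.911), Cd36 (0.902) and Tnfsf9 (0.899). For H2-DMb1 they were Adora3 (0.984), H2-T23 (0.955) and Lgals3 (0.953). Lgals3, which encodes galectin-3, was at 1274, 1031 and 1118 in control and at 965, 1121 and 935 in FHKO, highest in control 1 as H2-DMb1 was. For the low members they were Rnase2b (0.918), Itga5 (0.905) and Vasp (0.899) with H2-DMb2, and Siglec1 (0.973), Jak3 (0.946) and Elovl6 (0.941) with H2-Ob. Some matches were low too. Adora3 (19.1 to 26.2) lay below background in control 3, FHKO 1 and FHKO 3. Fut4, Tnfsf9 and Mmp8 did so in FHKO 1 and FHKO 3, Rnase2b in control 3, and Elovl6 in all but control 2. Tlr3 (26.3 to 59.1) was above background in every library, narrowly in FHKO 3. With library medians set equal, r of the listed matches ran from 0.691 (H2-DMa with Cd36) to 0.985 (H2-DMb1 with Adora3). Taking the 3 highest of 482 genes over 6 libraries selects for high r, so nothing is read from its size. H2-Ob, near background, reached 0.973 too.

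MHC class I genes, which present peptides from inside the cell to CD8 T cells, were steadier with the deposited scaling. H2-K1, a classical class I heavy chain, was at 10652, 10555 and 10014 in control and at 10122, 10266 and 10501 in FHKO, 1.06-fold from lowest to highest, against 1.83-fold for H2-Aa. Over the 10 class I and peptide loading genes above background in all libraries this fold was 1.06 to 1.35 (median 1.22). Over the 6 class II genes above background in all libraries it was 1.59 to 1.83 (median 1.72), and over all tested genes its median was 1.49. The ranges did not touch in this scaling. With library medians set equal they did, at 1.21 to 1.84 for class I (median 1.54) and 1.61 to 2.04 for class II (median 1.85). With the deposited scaling but without FHKO 2 the ranges also touched, at 1.29 to 1.67 for class II (median 1.47) and 1.06 to 1.35 for class I (median 1.22), and the median of all tested genes was 1.43.

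FHKO 2 was the highest of the 6 libraries in 5 of the 8 tested class II genes, and in 41.2% of all tested genes. With library medians set equal it was the highest in 0 of the 8 and in 16.1% of all tested genes, and H2-Aa was then highest in control 1, at 4466, with 3865 in FHKO 2. Within the FHKO group FHKO 2 remained above the other libraries for H2-Aa in that scaling, which had 2815 in FHKO 1 and 2361 in FHKO 3. FHKO 2 also held the most monocyte marker signal, almost all of it the chemokine receptor gene Ccr2. The 3 monocyte markers on the panel summed to 127 to 229 in control and 263 to 539 in FHKO, and Ccr2 was at 98.9, 159 and 205 in control and at 238, 510 and 256 in FHKO. All FHKO values of Ccr2 were above all controls, as in 22.9% of all tested genes. Its log2 difference was 1.09, or 0.74 without FHKO 2. With library medians set equal it was 0.79 (limma, adjusted p = 0.0724). Ccr2 missed limma's threshold (adjusted p = 0.148) and passed in DESeq2 (adjusted p = 0.0311), as did 6.73% of all tested genes. The part of monocyte RNA, depth or scaling in the class II values of FHKO 2 was not tested. In bulk RNA, more class II RNA per cell and more cells of a type that carries it cannot be told apart.

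**Figure D4:**
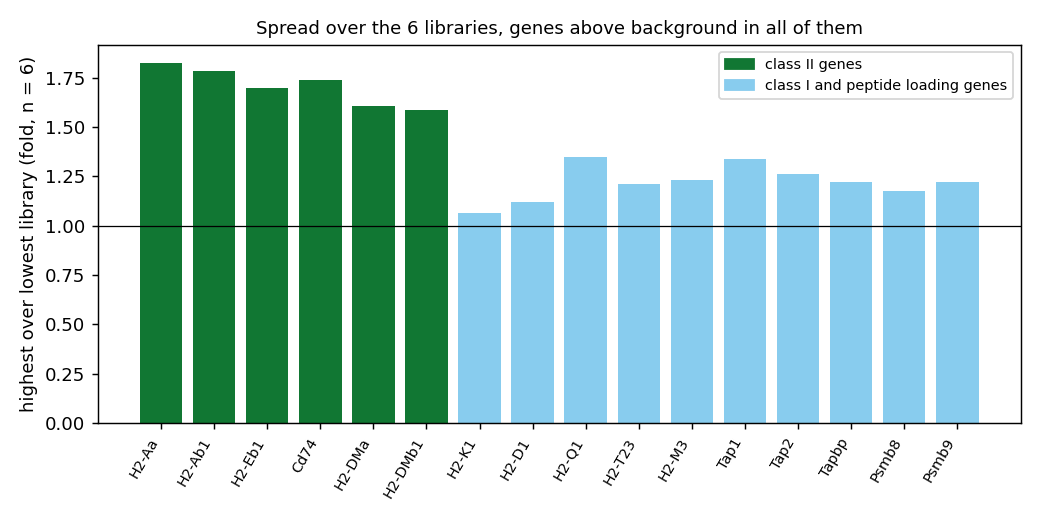
Highest over lowest normalised count among the 6 libraries (fold, vertical axis from 0) for the 6 class II genes (green) and 10 class I and peptide loading genes (blue) above background in all libraries, with the deposited scaling. Class II genes span 1.59 to 1.83 and class I genes 1.06 to 1.35.

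Other genes of the class II pathway came from a list of regulators, peptide supply, surface handling and co-stimulation. Of the 32 regulators listed 18 were on the panel and 15 were tested, and 0 passed (0.204% of all tested genes passed). At an unadjusted p under 0.05, 2 were higher, against 19.0% of all tested genes higher at that level, and 0 were lower, against 3.47%. Ifngr1, the ligand-binding chain of the interferon-gamma receptor, which drives Ciita, was at 1729, 1990 and 2053 in control and at 2215, 2533 and 2494 in FHKO. All FHKO values were above all controls, as in 22.9% of all tested genes. The log2 difference was 0.33 (limma, adjusted p = 0.148), or 0.03 with library medians set equal. Irf4, a transcription factor gene, had 0.53 (limma, adjusted p = 0.210), or 0.25 with library medians set equal. The median log2 difference of the 15 was 0.13, near that of all tested genes. Ifng itself, Il4 and Socs3 did not pass the filter and lay below background in every library, with Ifng at 7.27 to 12.4 in control and 9.67 to 14.6 in FHKO.

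Of 4 peptide supply genes tested, 0 passed limma's threshold. Ctsd, an aspartic protease of endosomes, had a log2 difference of -0.26 (limma, adjusted p = 0.148). DESeq2 called it (adjusted p = 0.0481), as it did 6.73% of all tested genes. With library medians set equal it was -0.56 and did not pass (limma, adjusted p = 0.0646). Ctss, the protease that trims the invariant chain in antigen-presenting cells, was at 23040, 24424 and 29858 in control and at 25192, 37294 and 31943 in FHKO. Its groups overlapped, and its log2 difference was 0.28 (limma, adjusted p = 0.310) or -0.02 with library medians set equal. Cd83, which protects surface class II from degradation, was the 1 surface handling gene tested, at 0.32 (limma, adjusted p = 0.149) or 0.03 with library medians set equal. Of 5 tested co-stimulation genes 0 passed, and Icosl had 0.39 (limma, adjusted p = 0.210), or 0.10 with library medians set equal. Of 11 tested class I and peptide loading genes 0 passed, and Tap2, a chain of the peptide transporter, had 0.24 (limma, adjusted p = 0.217), or -0.06 with library medians set equal.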

How the data were processed

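RNA of bone-marrow-derived macrophages was measured on a probe panel in 3 control and 3 FHKO libraries, grouped by sample title. The deposited table holds a normalised signal. Its values show that the authors multiplied whole-number counts by 1 factor per library, and 99.6% of gene values were whole multiples of it within 0.0051. The sources used here give neither platform nor software. Recovered counts summed to 717503 to 1348064 per library.

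Genes at 20 or more in at least 3 libraries were kept (490 of 753). limma 3.58.1 under R 4.3.3 was run on log2(value + 1) with lmFit and an intensity-trended eBayes, without a block. Two-sided p-values were adjusted over all kept genes by Benjamini-Hochberg. Log2 differences are on that scale, where changes of low genes come out too small. edgeR 4.0.16 (quasi-likelihood, TMM) on the recovered counts called 1 gene and DESeq2 1.42.0 called 33. The fits were tested on simulated data. Members and lists were chosen with earlier results of these data known. Named were every member, the 3 genes most like each tested member, and genes of the class II pathway and class I lists with an unadjusted p under 0.05. Other genes, such as Csf1r, Ccr2, Ctss, Ifng, H2-K1, Anxa1 and Lgals3, were described after their values had been seen. Other alternatives were leaving out each library, a replicate block, 2 other scalings, other filters and pseudocounts, and eBayes without a trend. Symbols were matched to RefSeq (GRCm38.p6), 743 directly, 9 by synonym and 1 not, and H2-Ea-ps by synonym. Figures were drawn with matplotlib 3.10.9.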

Additional observations from a re-analysis of the deposited data

How the results depend on the processing

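No alternative called a class II gene, and the lowest adjusted p of a member under any was 0.0846. Of 134 member values under alternatives 14 had the opposite direction. Cd74 was at -0.20 with library medians set equal, -0.0063 in edgeR and -0.017 in DESeq2, and H2-DMb2 at -0.020 with library medians set equal. Leaving out each library in turn gave log2 differences of -0.14 to 0.24 for Cd74, -0.32 to 0.12 for H2-Aa, -0.31 to 0.11 for H2-Ab1, -0.30 to 0.037 for H2-DMa and -0.37 to 0.0099 for H2-Eb1, lowest without FHKO 2 and highest without FHKO 3 in each. H2-DMb1 stayed between -0.39 and -0.12, H2-DMb2 between 0.08 and 0.40 and H2-Ob between 0.22 and 0.36. The DM and DO genes relative to the classical chains ranged from 0.0030 to 0.28, and were at -0.13 with H2-DMa and H2-DMb1 alone, an alternative chosen after seeing the data. Over all genes the count called was 1 in the reported fit, 14 with library medians set equal (4 higher, 10 lower), 33 in DESeq2 (19 higher, 14 lower) and 0 to 3 with 1 library left out, 3 without FHKO 2 and 0 without any other. With the replicate block it was 0, and 0 class II genes were called. Same-numbered libraries deviated from their group means with correlations of 0.262, -0.0333 and -0.294. The sample titles give them only a common number, and 3 correlations of this kind cannot decide whether they share more. The cause of these changes was not tested. Counting depth limits H2-Ob, H2-DMb2 and H2-Ea-ps.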
